A study of Mus musculus with 24 samples.

Results

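The transcripts described here are those of the 5 NF-κB subunits (Rela, Relb, Rel, Nfkb1 and Nfkb2), 4 IκB inhibitors (Nfkbia, Nfkbib, Nfkbie and Nfkbid) and Tnfaip3, taken by name as 10 of the 22009 named genes in an RNA-sequencing table of mouse CD4+ T cells. All 10 passed the filter of a mean of at least 1 RPKM (read counts scaled to transcript length and to the mapped reads of the library) used for the tests. The cells came from spleens of wild-type C57BL/6 mice, pooled from several animals, so that all cultures shared 1 pool. There were 2 libraries of resting cells and 18 of cells cultured on antibodies to CD3 and CD28, which trigger the T cell receptor and its costimulator. Th0 cultures received the stimulus alone, Th1 cultures had IL-12 and an antibody to IL-4 added, and Th2 cultures had IL-4 and antibodies to IL-12 and IFN-γ. Each condition was sequenced once at 4, 8, 12, 16, 20 and 24 h. In 4 further libraries cells had been stimulated for 16 h and then kept with actinomycin, which blocks transcription, for 0, 1, 2 or 4 h; their skewing condition is not given. The samples are labelled as purified CD4+ cells, whereas the study's methods name naive CD4+ cells.

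NF-κB factors are dimers of Rel-family subunits. RelA, RelB and c-Rel carry a domain that activates transcription, whereas Nfkb1 and Nfkb2 encode large precursors that are processed to the DNA-binding subunits and that, unprocessed, retain partner subunits in the cytoplasm. IκB proteins hold the dimers inactive. In T cells the antigen receptor and CD28 signal through adaptor proteins to the IκB kinase, which marks IκBα for destruction, and the freed dimers then enter the nucleus and switch on genes that include their own inhibitors. Tnfaip3 encodes a ubiquitin-editing enzyme that shuts the upstream signal off. These are facts about proteins, and the values below are mRNA levels.

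Mapped reads per library, recovered from the spacing of the RPKM values, ranged from 17512385 to 33017133. The summed level of 9 T cell markers was 2435 and 2454 RPKM at rest and 1460 to 2093 RPKM in culture. Monocyte and macrophage markers were also present at rest, and the levels of these and of B cell, NK cell and dendritic cell markers fell in culture (values are given beside Tnfaip3). The resting libraries carry a different tag in their titles from the cultures, so that preparation and stimulation cannot be told apart. The Th0 8 h library stood apart from its time point: over 10897 genes its nearest libraries were Th1 4 h (Pearson r = 0.980) and Th2 4 h (r = 0.978), and its r with the other 8 h cultures was 0.973 and 0.944. Results that rest on it are given with and without it.

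The promoters of members that rose with stimulation (Rel, Nfkb2, Nfkbid) and of the inhibitors that did not rise (Nfkbia, Tnfaip3) are shown to let their NF-κB motifs be compared. RefSeq (GRCm38.p6) gave a promoter entry for 8 of the 10 members, not for Nfkb1 and Relb. Each run is the 250 bases before a transcript start, 5′ to 3′ on the gene's strand. Nfkb2, Nfkbid and Tnfaip3 had more than 1 such window, and the one with the most matches is shown. Capitals mark matches to the 10-base NF-κB consensus on either strand, with overlapping matches merged into 1 stretch.

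Rel, chr11:23770970-23771219, minus strand: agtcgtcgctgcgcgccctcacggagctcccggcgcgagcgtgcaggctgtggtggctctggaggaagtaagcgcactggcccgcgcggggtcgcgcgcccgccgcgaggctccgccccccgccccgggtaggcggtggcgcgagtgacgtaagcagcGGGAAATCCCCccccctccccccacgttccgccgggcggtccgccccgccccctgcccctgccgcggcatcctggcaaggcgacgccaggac
Nfkb2, chr19:46304487-46304736, plus strand: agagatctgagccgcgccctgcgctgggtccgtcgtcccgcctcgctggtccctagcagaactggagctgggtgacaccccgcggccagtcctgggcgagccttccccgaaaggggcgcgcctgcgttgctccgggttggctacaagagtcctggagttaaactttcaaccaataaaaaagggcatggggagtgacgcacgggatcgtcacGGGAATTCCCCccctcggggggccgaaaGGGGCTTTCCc
Nfkbid, chr7:30422156-30422405, plus strand: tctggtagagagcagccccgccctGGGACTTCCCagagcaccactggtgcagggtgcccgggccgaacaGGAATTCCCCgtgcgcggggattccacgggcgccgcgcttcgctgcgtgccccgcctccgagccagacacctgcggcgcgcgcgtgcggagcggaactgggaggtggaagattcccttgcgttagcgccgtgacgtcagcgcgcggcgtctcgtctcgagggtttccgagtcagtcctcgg
Nfkbia, chr12:55492648-55492897, minus strand: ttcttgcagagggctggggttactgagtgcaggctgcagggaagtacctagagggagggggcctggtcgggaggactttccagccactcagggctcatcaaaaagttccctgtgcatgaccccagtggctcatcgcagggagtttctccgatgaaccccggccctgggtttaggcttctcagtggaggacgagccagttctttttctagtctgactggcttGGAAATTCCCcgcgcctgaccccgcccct
Tnfaip3, chr10:19015411-19015660, minus strand: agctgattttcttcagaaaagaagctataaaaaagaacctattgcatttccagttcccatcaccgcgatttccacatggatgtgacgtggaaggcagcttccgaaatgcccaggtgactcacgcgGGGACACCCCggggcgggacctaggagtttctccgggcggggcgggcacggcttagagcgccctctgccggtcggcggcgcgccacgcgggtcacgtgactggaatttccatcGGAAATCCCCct

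Matches were found before at least 1 start of 6 of the 8 members with an entry (75%), against 4.46% of the 27025 genes with an entry. Counted by window, 8 of 13 member windows held a match (61.5%), against 3.9% of 32851 windows. In the windows shown, Rel held 2 overlapping matches from position -92, counted from the transcript start. Nfkb2 held 2 overlapping matches from -39 and a further one from -11. Nfkbid held matches at -226 and -181, Nfkbia 1 at -29 and Tnfaip3 matches at -125 and -12. The other windows of Nfkb2 held 1 match each, at -236 and -225, and those of Nfkbid and Tnfaip3 held none. Nfkbie had 1 at -106, and no window of Rela or Nfkbib held the consensus letters. Promoters with these letters belonged both to genes that rose and to genes that fell, and Nfkbib rose without a match in its window. The part of these matches in the changes was not tested.

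The members are spread over 7 chromosomes (GENCODE M21, GRCm38). Nfkb1 lies on chr3:135584655-135691547, Relb on chr7:19606217-19629438, Rel on chr11:23736847-23770970, Rela on chr19:5637483-5648130 and Nfkb2 on chr19:46304320-46312385. Of the inhibitors, Nfkbib lies on chr7:28758251-28767512, Nfkbid on chr7:30421732-30428746, Nfkbia on chr12:55489410-55492647, Nfkbie on chr17:45555703-45563169 and Tnfaip3 on chr10:19000910-19015657.

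Resting cells held more inhibitor mRNA than subunit mRNA. Tnfaip3 was the most abundant member in both resting libraries (317 and 324 RPKM), followed by Nfkbia (165 and 173 RPKM) and Nfkb1 (98.5 and 96.5 RPKM). Rela came next at 33.0 and 38.3 RPKM, close to Nfkbid at 27.1 and 33.8 RPKM, so that their ranges overlapped. Nfkb2 (23.1 and 22.6 RPKM) and Nfkbib (18.8 and 20.5 RPKM) followed. Relb (15.5 and 16.4 RPKM), Nfkbie (11.7 in both) and Rel (11.3 and 11.4 RPKM) were lowest. The RPKM of Rel was calculated on a length of 2799 bases, whereas its annotated transcript is 7466 bases long, so its place in this order depends on the gene model.

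**Figure D1:**
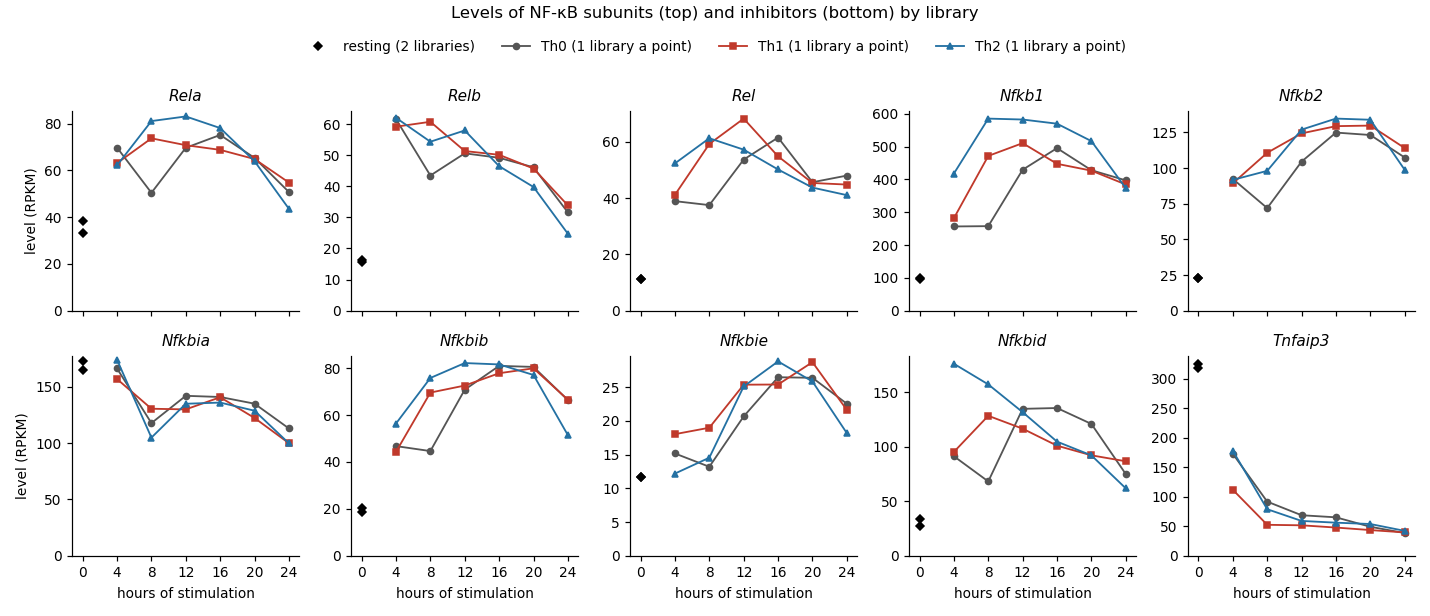
RPKM of each gene (vertical axis, from 0) against hours of stimulation, with 2 resting libraries at 0 h and 1 library for each point of Th0, Th1 and Th2. The 5 subunits, Nfkbib, Nfkbie and Nfkbid lie above resting cells in all 18 cultures, whereas Tnfaip3 lies below them throughout. The share of all genes placed in these ways is not given here.

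The first comparison asked how the transcripts of the pathway changed after stimulation. At each time point its 3 cultures were compared with the 2 resting libraries in limma, and a gene was past the threshold at a Benjamini-Hochberg adjusted p below 0.05 and a change of at least 2-fold. The cultures of a time point differ in cytokines and come from 1 pool, so p-values measure the spread between cultures and not between mice. At 4 h, 6 members were higher and 1 was lower, where 2.61% of all 10897 genes tested were higher and 7.97% lower. The counts were 6 and 1 at 8 h (all genes 6.42% and 12.5%), 7 and 1 at 12 h (10.7% and 16.4%) and 8 and 1 at 16 h (11.2% and 14.5%). At 20 h they were 7 and 1 (12.9% and 16.1%), and at 24 h 5 and 1 (12.7% and 17.4%). The median log2 difference of the members was 1.48 at 4 h, 1.81 at 12 h and 1.08 at 24 h, whereas the median of all genes was -0.04, -0.07 and -0.04.

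**Figure D2:**
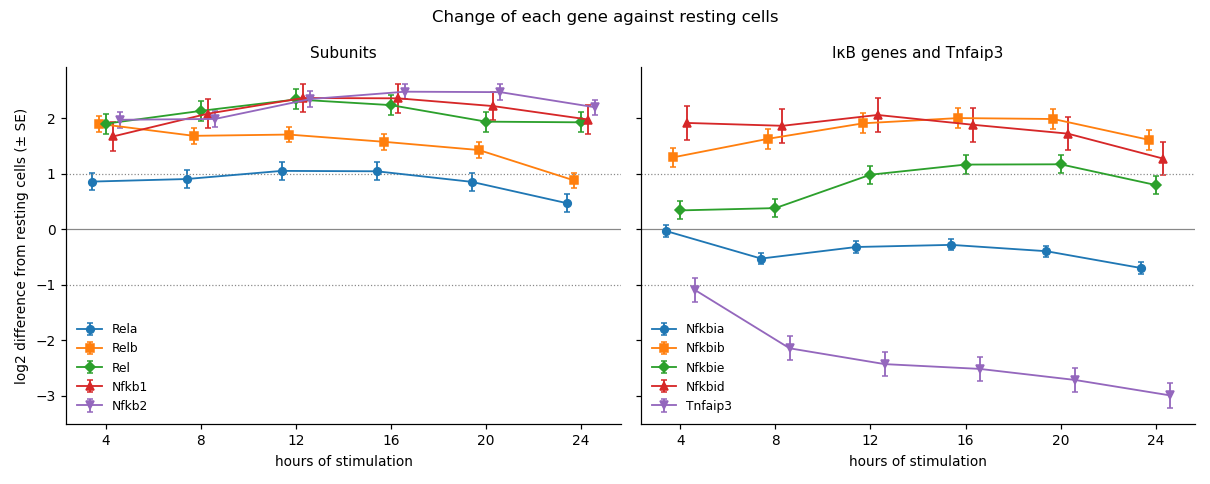
Log2 difference from resting cells (vertical axis, ± standard error from limma) against hours of stimulation, for the subunits (left) and for the IκB genes and Tnfaip3 (right), with points shifted sideways for legibility and dotted lines at a 2-fold change. Nfkb1, Nfkb2 and Rel stay near 2 at every time, Nfkbia stays between 0 and -1, and Tnfaip3 falls to -2.99 at 24 h.

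From 8 h on, Nfkb1, Nfkb2 and Rel had the largest log2 differences among the subunits, whereas at 4 h Relb (1.90) was above Nfkb1 (1.67). Nfkb1, whose product is the precursor of the most common DNA-binding subunit, had 98.5 and 96.5 RPKM at rest. In Th0 cultures it read 257, 258, 430, 495, 428 and 397 RPKM from 4 to 24 h. In Th1 cultures the values were 282, 472, 511, 448, 427 and 385 RPKM. In Th2 cultures they were 418, 585, 583, 570, 517 and 374 RPKM. Every culture was above both resting libraries and Nfkb1 was the most abundant member in all 18. Its log2 difference was 1.67 ± 0.26 (SE) at 4 h and 2.36 ± 0.26 at 12 h (limma, adjusted p = 1.3e-06 at 12 h).

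Nfkb2, the precursor of the subunit that pairs with RelB in the non-canonical branch, went from 23.1 and 22.6 RPKM to 89.3, 91.7 and 92.4 RPKM at 4 h and to 125, 129 and 135 RPKM at 16 h. The mean at 4 h was 91.1 ± 1.60 RPKM (SD, n = 3), and all cultures were above resting cells. Its log2 difference of 2.48 ± 0.14 at 16 h was the largest rise of any member at any time (limma, adjusted p = 2.6e-10). Rel, which encodes c-Rel, the subunit tied to Il2 transcription in T cells, read 38.9, 41.2 and 52.3 RPKM at 4 h, 53.7, 57.2 and 68.3 RPKM at 12 h and 41.1, 44.8 and 48.0 RPKM at 24 h. Its rise was 1.90 ± 0.18 on the log2 scale at 4 h and 1.93 ± 0.18 at 24 h, and the difference between these times was 0.02 ± 0.16 (limma, adjusted p = 0.903).

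Relb rose early and then declined. It read 59.1, 61.6 and 62.0 RPKM at 4 h against 15.5 and 16.4 RPKM at rest, and 24.7, 31.6 and 33.8 RPKM at 24 h. The groups did not overlap at any time, but the log2 difference narrowed from 1.90 ± 0.14 at 4 h to 0.88 ± 0.14 at 24 h, which was under 2-fold. Rela, the main activating subunit, changed least among the subunits. It read 62.2, 63.1 and 69.8 RPKM at 4 h, 69.7, 70.8 and 83.1 RPKM at 12 h and 43.6, 50.8 and 54.8 RPKM at 24 h, above the resting 33.0 and 38.3 RPKM in all 18 cultures. It passed 2-fold at 12 h (log2 1.05 ± 0.16) and 16 h (1.04 ± 0.16) and not at the other times. Without the Th0 8 h library, Rela was also past 2-fold at 8 h (log2 1.11).

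The inhibitors moved in different directions. Nfkbib, which encodes IκBβ, rose from 18.8 and 20.5 RPKM to 44.3, 46.8 and 56.4 RPKM at 4 h and 77.8, 81.0 and 81.6 RPKM at 16 h, a log2 difference of 2.00 ± 0.18 at 16 h (limma, adjusted p = 9.5e-08). Nfkbie, which encodes IκBε, was above its resting 11.7 RPKM in all cultures at 4 h (12.2, 15.2 and 18 RPKM) and 8 h (13.2, 14.5 and 19.0 RPKM). It reached 25.4, 26.5 and 28.8 RPKM at 16 h. It was past the threshold at 16 and 20 h (log2 1.17 ± 0.16 at both times) and not at 4 h (0.34 ± 0.16, adjusted p = 0.125 in limma). At 12 h it lay just under 2-fold (log2 0.98).

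Nfkbid encodes a nuclear IκB protein that binds the subunits on DNA. It read 27.1 and 33.8 RPKM at rest, and in Th0 cultures 91.4, 68.2, 135, 136, 121 and 75 RPKM from 4 to 24 h. In Th1 cultures it read 95.3, 128, 117, 101, 92.2 and 86.7 RPKM. In Th2 cultures it was highest at 4 h, with 176, 157, 132, 105, 92.1 and 61.9 RPKM. All cultures were above both resting libraries, and the log2 difference was 1.91 ± 0.30 at 4 h and 1.27 ± 0.30 at 24 h (limma, adjusted p = 0.00155 at 24 h). The spread between the 3 cultures at 4 h (SD 47.9 RPKM, n = 3) was wider relative to the mean than that of the other 3 IκB genes.

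Nfkbia encodes IκBα, the inhibitor that is destroyed and remade in each round of signalling. It had 165 and 173 RPKM at rest, with exact 95% Poisson intervals of 161 to 170 and 169 to 178 that cover counting error only. At 4 h it read 157, 166 and 174 RPKM, overlapping rest, with a log2 difference of -0.03 ± 0.10 (limma, adjusted p = 0.851). From 8 h all cultures were below both resting libraries, at 105, 118 and 131 RPKM at 8 h, 136, 141 and 141 RPKM at 16 h and 99.9, 99.98 and 113 RPKM at 24 h. The log2 difference at 24 h was -0.70 ± 0.10 (limma, adjusted p = 1.9e-05), under 2-fold. Nfkbia therefore was the only IκB gene of the 4 whose level was not above rest in the cultures.

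Tnfaip3 fell the most. It had 317 and 324 RPKM at rest. In Th0 cultures it read 173, 91.6, 68.6, 65.0, 49.0 and 38.4 RPKM from 4 to 24 h. In Th1 cultures the values were 112, 52.4, 51.5, 47.7, 43.5 and 39.5 RPKM. In Th2 cultures they were 178, 78.8, 58.9, 56.0, 53.7 and 42.1 RPKM. Every culture lay below rest, and in each condition each time point lay below the one before it. The log2 difference was -1.09 ± 0.22 at 4 h and -2.99 ± 0.22 at 24 h (limma, adjusted p = 8.3e-09 at 24 h). Without the Th1 cultures the fall at 4 h was 0.87 on the log2 scale and thus under 2-fold.

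Markers of several other cell types were lower in culture over the same hours as Tnfaip3. All 10 monocyte and macrophage markers were in the table, none at 0 in every resting library, and their summed level was 577 to 597 RPKM at rest, 46.8 to 79.2 RPKM at 4 h and 8.11 to 12.8 RPKM at 24 h. The 8 B cell markers summed to 72.6 to 82.6 RPKM at rest and 10.2 to 19.1 RPKM at 24 h, the 3 NK cell markers to 37.1 to 39.9 and 4.06 to 6.94 RPKM, and the 6 dendritic cell markers to 11.3 to 13.1 and 3.24 to 4.55 RPKM. For red cells 7 of 8 markers were in the table, and their sum was 38837 to 42382 RPKM at rest, 29387 to 47109 RPKM at 4 h, which overlapped rest, and 142 to 212 RPKM at 24 h. The 4 neutrophil markers summed to 3.54 to 3.85 RPKM at rest, with Ly6g at 0, and 0.578 to 2.10 RPKM at 24 h, but reached 8.60 RPKM at 4 h and 8.98 RPKM at 12 h. The 2 CD8 T cell markers summed to 12.4 to 12.7 RPKM at rest, 11.6 to 15.7 RPKM at 4 h and 7.44 to 11.9 RPKM at 24 h. Their part in the falls of Tnfaip3 and Nfkbia was not tested. In bulk RNA, fewer cells of a type and less RNA per cell cannot be told apart.

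Fewer members changed between the first and last time point. Between 4 and 24 h no member was past the threshold upwards and 2 were downwards, Tnfaip3 (log2 -1.90 ± 0.20) and Relb (-1.02 ± 0.13), where 13% of all genes were higher and 13.2% lower. Relb lay just past 2-fold, and without the Th2 cultures its fall was 0.87 on the log2 scale. By adjusted p alone Nfkbie was higher (0.46 ± 0.15), and Nfkbia (-0.67 ± 0.09), Nfkbid (-0.64 ± 0.27) and Rela (-0.39 ± 0.14) were lower at 24 h. The share of all genes by adjusted p alone is not given for these times, and the shares above are for the stricter threshold.

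Because RPKM values are per length, the levels were also summed within a library. The 5 subunits summed to 182 and 185 RPKM at rest and the 4 IκB genes to 223 and 239 RPKM, so that there were 1.23 and 1.29 RPKM of IκB for each RPKM of subunit. At 4 h this ratio was 0.605 ± 0.014 (SD, n = 3), and at 24 h it was 0.423 ± 0.022. It lay between 0.398 and 0.615 in all 18 cultures, below both resting libraries. From 8 to 20 h it was lowest in Th2 and highest in Th0 at each time. The share of Nfkbia in the summed IκB level went from 73.3% ± 1.2 (SD, n = 2) at rest to 47.8% ± 5.5 (n = 3) at 4 h and 40.1% ± 3.4 at 24 h, as Nfkbid and Nfkbib rose. Nfkb1 held 53.2% ± 1.5 of the summed subunit level at rest and 62.5% ± 1.7 at 24 h. The level of Tnfaip3 per Nfkbia was 1.90 ± 0.03 at rest and 0.385 ± 0.042 at 24 h. From rest to 24 h the mean subunit sum rose from 183 to 616 RPKM, with Nfkb1 going from 97.5 to 385 RPKM. The mean IκB sum went from 231 to 261 RPKM, so the lower IκB ratio followed the subunit sum. That sum counts Nfkb1 and Nfkb2, whose unprocessed products retain partner subunits, and the IκB sum counts the nuclear Nfkbid. The ratio is therefore not a balance of inhibitor and subunit. These sums depend on the gene model used for each length, and protein levels were not measured.

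**Figure D3:**
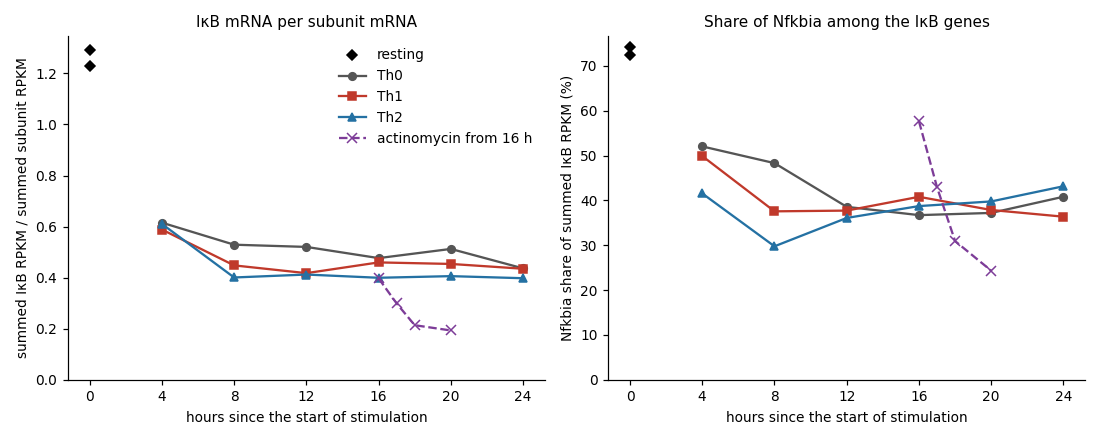
Summed IκB RPKM divided by summed subunit RPKM (left) and the percentage of the summed IκB RPKM held by Nfkbia (right), from 0, against hours since the start of stimulation, with 1 point for each library; crosses mark the actinomycin libraries, placed from 16 h. The ratio is above 1 only in the 2 resting libraries and reaches 0.193 after 4 h of actinomycin.

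Across the 20 time-course libraries, resting cells included, Pearson r of log2(RPKM + 0.5) among the 5 subunits, Nfkbib and Nfkbid ran from 0.721 (Relb and Nfkbib) to 0.973 (Nfkb1 and Nfkbib). Over the 18 cultures alone it ran from -0.067 (Relb and Nfkb2) to 0.886 (Nfkb1 and Nfkbib), with 0.034 for Relb and Nfkbib. Nfkbie, which also rose, had lower r with most of these genes. Over the 20 libraries its r with them ran from 0.360 (Relb) to 0.794 (Nfkbib). Over the cultures it ran from -0.205 (Relb) to 0.910 (Nfkb2), the highest r between any members there. Nfkbia had its highest r with Tnfaip3 over the 20 libraries (0.760) and with Relb over the cultures (0.751, against 0.697 for Tnfaip3). Its r with Nfkb1 was -0.487 over the 20 libraries and -0.167 over the cultures. These values describe libraries that share time points and 1 pool of cells. Over the 20 libraries, the genes most like each member among 10897 were Bend3 (0.983) and Kdm2b (0.982) for Nfkb1, Irf4 (0.981) and Aebp2 (0.969) for Nfkb2, and Pdcd1 (0.971) and Il13 (0.960) for Rel. For Relb they were Prkar1a (0.963) and Alkbh6 (0.962), and for Rela Scamp2 (0.957) and Psd (0.956). For the inhibitors they were Aebp2 (0.975) and Nfkb1 (0.973) for Nfkbib, Sra1 (0.957) and Sema7a (0.950) for Nfkbid, and Atxn1 (0.934) and Coq4 (0.920) for Nfkbie. Tnfaip3 was most like Ptdss2 (0.977) and Aqp9 (0.977), and Nfkbia most like Akap13 (0.852) and Git2 (0.850).

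The wider pathway was described with 3 lists. Of 29 genes of the IκB kinase complex and its upstream adaptors, all tested, 1 was higher at 4 h. It was Birc3, a ubiquitin ligase of TNF receptor complexes (63.8 RPKM at rest and 193 at 4 h, log2 1.59 ± 0.18). At 24 h Ube2n, a ubiquitin-conjugating enzyme, was higher (log2 1.19 ± 0.12), and Ikbke (-1.28 ± 0.34), Traf5 (-1.14 ± 0.22) and Tab3 (-1.06 ± 0.12) were lower. The median of this list was 0.22 at 4 h and -0.34 at 24 h. Most genes of this list were not past the threshold at either time, as was so for all genes. Of all genes, 2.61% were higher and 7.97% lower at 4 h, and 12.7% and 17.4% at 24 h.

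Of 21 negative regulators and atypical IκB genes, 20 were tested. At 4 h, 2 were higher, Tnip2 (log2 1.39 ± 0.18), a partner of the Tnfaip3 product, and Bcl3 (1.22 ± 0.42), a nuclear IκB protein. Nlrc3, a dampener of innate signalling, was lower at 4 h (-1.68 ± 0.23) and at 24 h (-2.48 ± 0.23). Nfkbiz, another nuclear IκB gene, was lower at 24 h (-1.89 ± 0.28, 41.1 RPKM at rest and 11.1 RPKM at 24 h), as was Usp18 (-1.52 ± 0.41). No gene of the list was higher at 24 h. Of all genes, 2.61% were higher and 7.97% lower at 4 h, and 12.7% and 17.4% at 24 h.

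Of 48 genes known as NF-κB targets in T cells 46 were in the table and 45 were tested; 6 of the list (Nfkbiz, Bcl3, Birc3, Traf1, Tnip1 and Zc3h12a) also stand in the other lists. At 4 h, 18 were higher and 2 lower, where 2.61% of all genes were higher and 7.97% lower. At 24 h the counts were 19 and 3, where the shares of all genes were 12.7% and 17.4%. The median log2 difference of the targets was 1.22 at 4 h and 0.94 at 24 h, against -0.04 for all genes at both times. The largest rises at 4 h were those of Irf4, a transcription factor of effector cells (10.5 to 143 RPKM, log2 3.70 ± 0.24), the cytokine Il2 (1.37 to 21.7 RPKM, 3.27 ± 0.52), the checkpoint ligand Cd274 (13.8 to 110 RPKM, 2.79 ± 0.34) and Tnf (13.1 to 99.7 RPKM, 2.77 ± 0.43). Junb, an AP-1 component, was lower, from 717 to 135 RPKM (log2 -2.45 ± 0.26), and Marcks fell as well (-2.37 ± 0.70). The lists were chosen with earlier results of these data known, so that these counts are descriptions.

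The next comparison asked whether the members differed between Th0, Th1 and Th2 cultures, over 6 time points with time as a factor. The time points of a condition were a series of cultures from the shared pool, not repeats of the condition. The p-values between conditions therefore measure spread over time points, and not between repeated experiments or mice. No member was past the threshold of adjusted p and 2-fold in any of the 3 contrasts, where 2.01% of 10737 genes were between Th2 and Th0, 1.96% between Th2 and Th1 and 0.494% between Th1 and Th0. By adjusted p below 0.05 alone, 1 member differed in each contrast, where 29.6%, 12.2% and 2.27% of all genes did. Among the subunits Nfkb1 was higher in Th2 than in Th0 by 0.45 ± 0.13 on the log2 scale, at 5 of 6 time points, the exception being 24 h (limma, adjusted p = 0.0152). The difference was 0.31 without the Th0 8 h library (adjusted p = 0.0267 in limma) and 0.21 over 12 to 24 h alone (adjusted p = 0.140). Between Th2 and Th1 the difference of Nfkb1 was 0.28 ± 0.13 (limma, adjusted p = 0.188), and without the Th0 8 h library its adjusted p was 0.0399.

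On average over the 6 time points Tnfaip3 was lower in Th1 than in the other conditions, by less than 2-fold. It was higher in Th2 than in Th1 at all 6 time points, by 0.34 ± 0.09 on the log2 scale (limma, adjusted p = 0.0231), and lower in Th1 than in Th0 at 5 of 6 by 0.40 on that scale, with SE 0.09 (adjusted p = 0.0343). The gap between Th1 and the others was widest at 4 and 8 h, 112 against 173 and 178 RPKM and 52.4 against 91.6 and 78.8 RPKM, and at 24 h the values were 39.5 against 38.4 and 42.1 RPKM. Without the Th0 8 h library the difference between Th1 and Th0 was -0.35 (limma, adjusted p = 0.0899). Without the 4 h time point that between Th2 and Th1 was 0.28 (adjusted p = 0.106 in limma). With median-of-ratios scaling or no filter on low values, the limma adjusted p for Th1 against Th0 was 0.0564 and 0.0692. For Th2 against Th1 it was 0.0185 and 0.0402 under these settings. Over the 6 time points an exact sign-flip permutation test, two-sided and unadjusted, gave p = 0.03125 for Th2 against Th1, the smallest value it can give. For Tnfaip3 in Th1 against Th0, and for Nfkb1 in Th2 against Th0, it gave 0.0625.

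The 7 members other than Nfkb1, Nfkbid and Tnfaip3 had 21 differences between conditions, from -0.19 (Nfkbie, Th2 minus Th1) to 0.17 (Nfkbie, Th1 minus Th0) on the log2 scale, with adjusted p from 0.215 to 0.914 in limma. A missed threshold over the 6 time points of a series does not show that the conditions were alike. At 8 h Th0 was the lowest of the 3 conditions for 8 members, for example Nfkbid at 68.2 RPKM against 128 in Th1 and 157 in Th2, and not for Nfkbia or Tnfaip3. This is the time point at which the Th0 library was nearest to 4 h cultures. The share of all genes lowest in Th0 at 8 h is not given here.

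**Figure D4:**
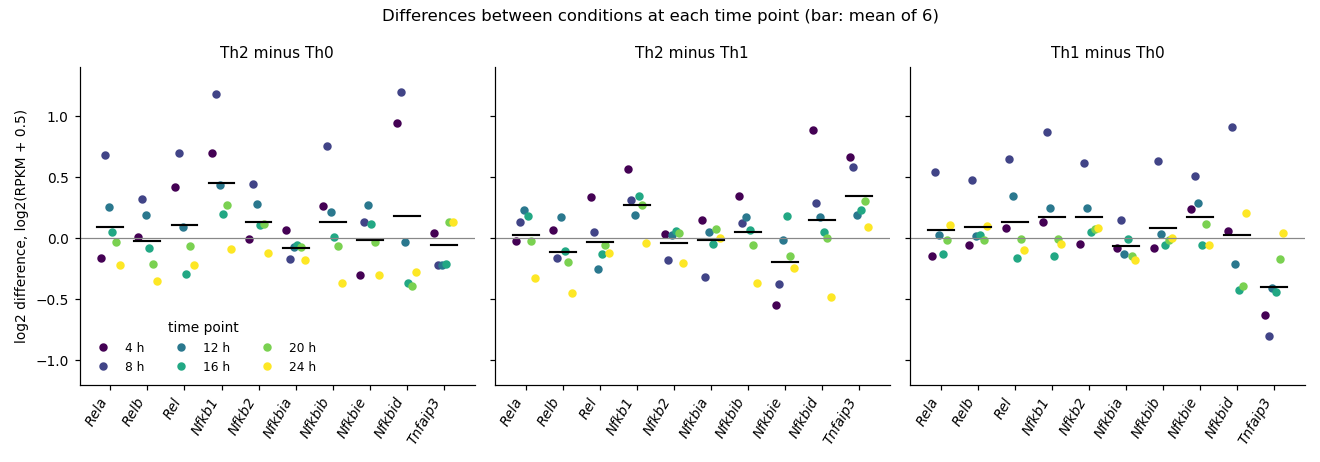
Difference in log2(RPKM + 0.5) between conditions (vertical axis) for each gene at each of 6 time points (colour), with a bar at the mean of 6. Tnfaip3 lies above 0 at all 6 time points for Th2 minus Th1, and the 8 h points lie above the others for most genes where Th0 is subtracted.

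Differences between conditions were also tested for a change per hour. Nfkbid was the 1 member past adjusted p below 0.05, with the Th2 minus Th0 difference falling by 0.08 log2 per hour (SE 0.019; limma, adjusted p = 0.0308), where 5.15% of all genes passed. It went from 176 against 91.4 RPKM at 4 h to 61.9 against 75 RPKM at 24 h, so that the order of the conditions turned. Between Th2 and Th1, and between Th1 and Th0, no member passed by this test, where 1.09% and 0.0279% of all genes did.

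Of the lists, no gene among the kinase-complex genes or the negative regulators was past both adjusted p and 2-fold between conditions. By the same threshold, among the targets 1 was higher and 2 were lower in Th2 than in Th0, 3 and 6 in Th2 against Th1, and 3 and 0 in Th1 against Th0. Of all genes, 2.01%, 1.96% and 0.494% passed it in either direction in these contrasts. Cxcl10, a chemokine also driven by interferon, averaged 3.75 RPKM in Th2, 26.3 RPKM in Th0 and 59.4 RPKM in Th1 (Th2 minus Th1 log2 -3.79 ± 0.11). Irf1, an interferon-responsive factor, averaged 92.4, 381 and 320 RPKM in the same order, and Ifng 68.1 RPKM in Th2 and 398 RPKM in Th1 (log2 -2.49 ± 0.26). Cd83 was higher in Th2 (73.8 RPKM) than in Th0 (26.6 RPKM) and Th1 (21.6 RPKM), and so were Marcks (log2 1.56 ± 0.23) and Stat5a (1.00 ± 0.11) against Th1.

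The actinomycin libraries asked how long the transcripts lasted once transcription was blocked. With 1 library a time point, the changes compare those libraries, and RPKM is relative to the RNA that remained, so that a gene is given against the median of 10571 genes (log2 -0.0013 from 0 to 4 h). Nfkbia read 152, 86.8, 34.1 and 28.9 RPKM at 0, 1, 2 and 4 h, and Tnfaip3 60.2, 33.4, 18.6 and 14.4 RPKM. Rel read 41.7, 35.5, 24.1 and 20.7 RPKM. Each of these fell at every step, and the drop was steepest in the first 2 h. The 2 h library was also the lowest for the members that stayed close to flat, described below. The ratio of 4 h to 0 h, with an exact 95% interval for counting error only, was 0.190 (0.176 to 0.204) for Nfkbia and 0.497 (0.463 to 0.533) for Rel.

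The least-squares slope of log2(RPKM + 0.1) was -0.61 per hour for Nfkbia, -0.50 for Tnfaip3, -0.26 for Rel and -0.24 for Nfkbid. Only 10 genes of 10571 fell more steeply than Nfkbia and 40 more steeply than Tnfaip3, whereas 617 did so for Rel and 809 for Nfkbid. An exact two-sided permutation of the 4 times, which cannot go below p = 0.0833, gave 0.0833 for Tnfaip3 and Rel and 0.125 for Nfkbia. From 0 to 4 h 3 members were past 2-fold below the median change and none above it, where 6.51% of all genes were below and 4.74% above. They were Nfkbia (log2 -2.39), Tnfaip3 (-2.05) and Rel, which at -1.004 sat on the limit and was past it in some settings only. Nfkbid dropped between 1 h (31.7 RPKM) and 2 h (15.1 RPKM) and read 17.7 RPKM at 4 h. Nfkbie read 15.4, 14.7, 8.59 and 11.2 RPKM.

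The remaining members were close to flat. Nfkb1 read 442, 448, 347 and 404 RPKM, Nfkb2 90.3, 91.2, 65.4 and 83.7 RPKM and Nfkbib 65.6, 69.0, 52.4 and 60.9 RPKM, with slopes of -0.05 to -0.04 log2 per hour. Rela (51.2, 58.8, 44.9 and 57.1 RPKM) and Relb (38.8, 43.8, 34.8 and 49.7 RPKM) ended above where they began. All of these were lowest at 2 h. The ratio of summed IκB to summed subunit RPKM went from 0.397 at 0 h to 0.299, 0.214 and 0.193.

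**Figure D5:**
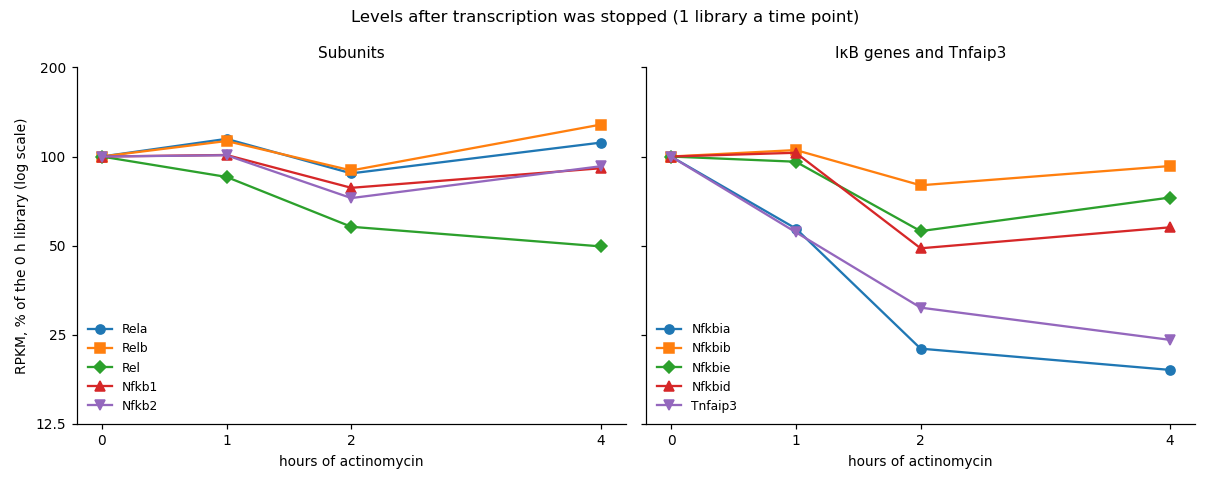
RPKM as a percentage of the 0 h library (vertical axis, log scale) against hours of actinomycin, for the subunits (left) and for the IκB genes and Tnfaip3 (right), with 1 library for each point and no error bars. Nfkbia and Tnfaip3 fall furthest and Rel is the only subunit that falls at every step.

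AU-rich elements, built on the core ATTTA, are known to mark many short-lived mRNAs, and the 3′ untranslated regions (UTRs) of the 3 members that fell furthest are therefore shown in part. Each run is the 30-base stretch with the most ATTTA cores in the GENCODE M21 transcript with the longest coding sequence, with the cores in capitals.

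Nfkbia, chr12:55489608-55489637, minus strand: aggaccacgttttATTTAttgtgcttttga
Tnfaip3, chr10:19001753-19001782, minus strand: ttATTTAttatgaacttccaagttATTTAa
Rel, chr11:23738129-23738158, minus strand: tATTTAagccgaacatcatggcagaATTTA

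Nfkbia had 2 ATTTA cores in a 3′ UTR of 512 bases, Tnfaip3 5 in 1821 bases and Rel 12 in 5418 bases. Among the slower members, Nfkb1 had 4 in 700 bases and Nfkb2 1 in 133 bases, Nfkbid 1 in 559 bases, and Rela, Relb, Nfkbib and Nfkbie had none. The median of 10071 genes was 1 core and 1.23 per kilobase, against 3.91 for Nfkbia, 2.75 for Tnfaip3 and 2.21 for Rel. The density was 5.71 for Nfkb1 and 7.52 for Nfkb2, which hardly fell, and that of Nfkb2 rests on 1 core in 133 bases. The part of these cores in the falls was not tested.

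The 0 h actinomycin library can be set beside the 16 h cultures, which had the same time of stimulation. It was below the range of the 3 cultures for 8 members, within it for Tnfaip3 (60.2 RPKM against 47.7 to 65.0) and above it for Nfkbia (152 RPKM against 136 to 141). The share of all genes below this range is not given here, so that the count only describes these libraries. Nfkbid stood out at 30.8 RPKM against 101 to 136 RPKM, 0.270 of the mean, and was the 1 member more than 2-fold lower, where 1.54% of 10553 genes were. Nfkbie had 0.571 of the mean and the other 6 between 0.692 and 0.877. In this set monocyte and macrophage markers summed to 55.1 to 77.9 RPKM, against 12.0 to 28.9 RPKM in the 16 h cultures, and B cell markers to 3.57 to 4.95 RPKM against 18 to 20.8 RPKM. Their part in these differences was not tested, and the decay values above hold for these libraries.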

How the data were processed

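RNA from 24 libraries (20 of the time course and 4 of the actinomycin series) was sequenced by the study on an Illumina NextSeq instrument. The authors deposited 1 table of RPKM values per gene; the submitters' processing notes name BWA and GRCm38, and no version or counting tool is given in the sources used here. One further row without a gene name was left out. Mapped reads per library were recovered from the smallest RPKM steps (17512385 to 33017133). Whole-read steps existed for Rela, Rel, Nfkbia and Nfkbie, whose counting intervals are exact Poisson (95%); the other 6 members carry no counting error here.

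Groups were taken from the sample labels. Tests used limma 3.58.1 in R 4.3.3 with an intensity trend on log2(RPKM + 0.5), a log scale that understates the changes of low genes, over genes averaging 1 RPKM or more, with Benjamini-Hochberg adjustment over all genes tested. The time fit held 20 libraries, with the 3 cultures of a time point as its libraries, and the condition fits 18. The fit was tested on simulated data. Actinomycin slopes were least-squares fits on log2(RPKM + 0.1). Python 3.11.15 with scipy 1.17.1 was used for permutation tests. Promoters were matched by symbol to RefSeq and 3′ UTRs to GENCODE M21, the same build as the submitters name.

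All 10 members are named. Of each pathway list, genes named are up to 4 with the largest rise and fall past the threshold at 4 and 24 h, and up to 3 a direction between conditions; the 2 genes most like each member are named by Pearson r. One gene of a pathway list is not reported here. The members and the lists were chosen with earlier results of these data known. Alternatives covered the pseudocount, the filter on low values, 3 scalings, the trend and leaving out libraries.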

Additional observations from a re-analysis of the deposited data

Results flagged for a closer look

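The difference between Th2 and Th0 in Nfkbid, a nuclear IκB gene, changed with time, with a slope of -0.0801 log2 per hour (limma, adjusted p = 0.0308; an interaction of condition and hours over 18 cultures). It was drawn out because the effect of condition differed between time points: Th2 was above Th0 at 4 h (176 and 91.4 RPKM) and 8 h (157 and 68.2 RPKM) and below it at the 4 later times. Without the Th0 8 h library the slope was -0.0606 (adjusted p = 0.0281), and with no filter on low values the adjusted p was 0.0912.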

How the results depend on the processing

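Over 1481 alternative values, 1439 had the same direction and the same call by the threshold of adjusted p and 2-fold. Of the others, 9 lost that threshold, 11 gained it, 16 changed sign and 6 counts of members moved by over 1.5 times. For a difference per hour the threshold was adjusted p alone. Condition differences that passed by adjusted p alone count as the same here, even where adjusted p rose above 0.05. Their adjusted p ranges are given below. Against resting cells the number of members past the threshold stayed between 6 and 9 at every time under every alternative, the changes being Rela, Nfkbie, Relb and Tnfaip3, which lay near 2-fold. Between 4 and 24 h the count was 1 under median-of-ratios scaling and 1 to 2 when a culture series was left out, as Relb fell by 0.95 and 0.87 on the log2 scale. For the Th2 minus Th0 difference per hour it was 0 with no filter on low values, 2 among genes averaging 5 RPKM or more and 3 under median-of-ratios scaling, and for Th2 minus Th1 per hour 2 without the Th0 8 h library, an alternative chosen after seeing the data. The cause was not tested.

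The sign changes among the 1481 values were all in values near 0 or in Nfkbid. Nfkbia at 4 h was 0.0462 and 0.0274 under median-of-ratios and upper-quartile scaling and -0.0667 to 0.00760 when libraries were left out. Rel between 4 and 24 h was -0.0926 under quantile normalization and -0.113 to 0.210 when libraries were left out. Over 12 to 24 h alone, Nfkbid was -0.268 for Th2 minus Th0, -0.0643 for Th2 minus Th1 and -0.203 for Th1 minus Th0. Without the Th0 8 h library the first was -0.0114 and the last -0.164. Leaving out time points gave -0.0252 to 0.293 and -0.150 to 0.116, and quantile normalization gave -6.99e-05 for Th1 minus Th0. The 21 condition differences of the other 7 members had 357 alternative values that are not among the 1481. Of these 357 values 30 changed sign, in 11 of the 21 differences, all of differences of at most 0.14, and 0 passed the threshold.

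The adjusted p of Nfkb1 (Th2 minus Th0) ranged from 0.00604 to 0.140 over the alternatives, that of Tnfaip3 from 0.0114 to 0.167 (Th2 minus Th1) and from 0.0113 to 0.318 (Th1 minus Th0). Rel after actinomycin was between -1.05 and -0.97 against the median change. Quantile normalization moved the median of all genes to 0.11 at 16 and 20 h and 0.13 at 24 h. No paired analysis by replicate number was possible because each culture was sequenced once; the conditions were compared within time points. The main limits are 1 library for each culture and time, 1 pool of cells, resting libraries prepared under another tag, and no counting error for 6 members.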
